A study of Macaca mulatta with 34 samples.

Results

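RNA of control tissue from the deep cerebellar nuclei (DCN) of rhesus macaques (Macaca mulatta) is described as a reference transcriptome. The reference was made of 3 total RNA libraries, those of the DCN that received empty capsid, by its name an adeno-associated virus (AAV) shell without a vector genome, in Study 2 of the series. They were checked against the DCN libraries that received vehicle in Study 1, of which 3 of 4 were kept because the other held 87741 counts in genes, under the minimum of 100000. These 6 libraries are among 22 DCN libraries and 34 libraries in all. In both studies the agent was injected into the DCN under magnetic resonance guidance, so both control groups carry an injection. The labels give each library its own animal number, and give no age, sex, strain or time after injection. The other groups of the series received AAV vectors with RNA interference cargo against ATXN1 or ATXN7 or with filler sequence and are not described. Libraries keep their replicate numbers below, so vehicle libraries are numbered 1, 3 and 4. The 2 studies differ in counting program, strand handling and depth, and no test was made between them.

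The DCN are the output stations of the cerebellum. Large glutamatergic projection neurons there send axons to the thalamus and brainstem, smaller GABA and glycine neurons project to the inferior olive or act locally, and the axons of Purkinje cells end on all of them. The nuclei lie inside the cerebellar white matter and are crossed by myelinated fibres, while granule cells and Purkinje cell bodies lie in the overlying cortex. In a bulk sample, fewer cells of a type and less RNA per cell cannot be told apart.

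Counts in genes came to 39792653, 28496977 and 31443741 in empty capsid libraries 1, 2 and 3, and to 2270423, 3439609 and 2976749 in vehicle. Levels are given as CPM, the reads of a gene per 1000000 reads in genes, after scaling within each group by the trimmed mean of M values (TMM). A count of 0 allows up to 3 counts, or 0.0754 to 0.105 CPM in the empty capsid libraries and 0.872 to 1.32 CPM in vehicle. Levels are shares of reads, not of molecules, since no transcript lengths were used, so the ranks below favour long transcripts. Some libraries stood apart, and their values are given beside the results they touch. Among these, empty capsid library 3 was lowest in myelin genes, vehicle libraries 1 and 3 were high in granule cell genes, and 7 Y-linked genes were at or near 0 in empty capsid library 2 and vehicle libraries 3 and 4.

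Of 34847 gene identifiers, 15396 reached at least 1 CPM in all 3 empty capsid libraries (44.2%), and 13300 of these had a symbol. Among 16797 identifiers whose symbol is listed as protein-coding by RefSeq, 13032 reached that level (77.6%). In vehicle 13836 identifiers did so, and 13553 did so in both groups. The range was wide: 10456 identifiers had an empty capsid mean of at least 10 CPM, 1849 of at least 100 CPM and 68 of at least 1000 CPM. No count fell on 6594 identifiers in any empty capsid library. The 2 groups differed in depth and in counting program, and 17958 identifiers had at least 10 counts in all 3 empty capsid libraries against 11951 in all 3 vehicle libraries, and 1373 of the former had no vehicle count at all. Of these 1373, 669 had an empty capsid mean above 1.32 CPM, the level that a count of 0 allows in the shallowest of the 3 vehicle libraries.

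A few identifiers took much of the reads. The 10 highest held 17.1% ± 0.773 (SD, n = 3) of empty capsid counts, the 100 highest 30.5% ± 0.912 and the 1000 highest 55.2% ± 0.734. The same shares in vehicle were 8.23% ± 0.335, 20.7% ± 0.570 and 50.4% ± 0.639 (n = 3). In relative terms the 2 groups differed most among their 10 highest identifiers. The top of the empty capsid ranking held identifiers whose reads lie mostly on the other strand. The vehicle tables count the 2 strands apart, and 9 of the 100 highest empty capsid identifiers had over 50% of their vehicle reads on the strand opposite the gene, with another 2 not judged because they had under 20 vehicle reads.

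The highest named gene by count was GSTA4, a glutathione transferase, at 17009, 21306 and 18846 CPM. Its vehicle level on the gene's own strand was only 13.1, 13.7 and 17.01 CPM, and 99.9% of vehicle reads at the gene lay on the opposite strand. CDR1, a gene named for cerebellar degeneration, held rank 9 in empty capsid at 5990.1, 6312 and 5773 CPM, against 1.74, 2.03 and 0 CPM in vehicle with 99.99% of reads on the opposite strand. In human and mouse that opposite strand is known to give a circular RNA abundant in brain, and no value for it is given here. PARP2, a DNA repair enzyme, showed the same at 1989.6, 1933 and 2923 CPM, with 14.4, 22.1 and 22.1 CPM in vehicle and 98.8% of reads opposite. These 3 levels are therefore not read as expression of the genes named. PARP2 was highest in empty capsid library 3, as was the RNA component of RNase P, a tRNA-processing enzyme, at 4445, 4419 and 6571 CPM. The highest identifier of all, ENSMMUG00000028689, has no symbol and was at 43552, 49909 and 49415 CPM. In vehicle it was at 33.5, 0.291 and 0 CPM, and 99.9% of its vehicle reads lay on the opposite strand, most of them in vehicle library 1 (97220 reads, against 1787 and 61 in libraries 3 and 4). No symbol was given for 8 of the 20 highest and 15 of the 100 highest identifiers.

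Among genes read on their own strand, glial genes led. MBP, the myelin basic protein, held rank 4 of all identifiers at 21851, 20865 and 13789 CPM and rank 1 in vehicle at 16344, 14832 and 17382 CPM. Empty capsid library 3 lay well below libraries 1 and 2, and the vehicle values lay within the empty capsid range. GFAP, the intermediate filament of astrocytes, held rank 10 and was even across libraries at 6059, 5702 and 5686 CPM. Its vehicle values of 8713, 8163 and 8407 CPM were all higher. Other genes among the 20 highest identifiers with a symbol included MAP1B (3126 CPM, a neuronal microtubule protein), SPARC (2868 CPM, a secreted matrix protein), CST3 (2853 CPM, a protease inhibitor), DST (2477 CPM, a cytoskeletal linker) and AQP4 (2433 CPM, the water channel of astrocyte endfeet). GPM6B (2076 CPM), CKB (1919.9 CPM), TF (1833 CPM) and GLUL (1793 CPM) followed. Further entries were an RNA of the signal recognition particle, under 2 identifiers at 10239.7 and 3051 CPM, and the microRNA hairpin mml-mir-663-1 at 1781 CPM. The second of those signal recognition particle identifiers had only 20.5, 45.9 and 37.4 CPM in vehicle.

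Gene lists for cell types, regions and functions were then summed per library (32 lists, with 340 of 355 genes matched by symbol). The share of all identifiers that reached 1 CPM in every empty capsid library, 44.2%, is a background for the counts of members detected, but it includes many small RNA and unnamed identifiers. Among identifiers with a symbol listed as protein-coding the share was 77.6%, so a list near that share does not stand out. Over 13065 genes detected in both groups on their own strand, the median ratio of vehicle to empty capsid was 1.17 (quartiles 0.965 and 1.40), so a vehicle level slightly above the empty capsid level was the general case.

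**Figure D1:**
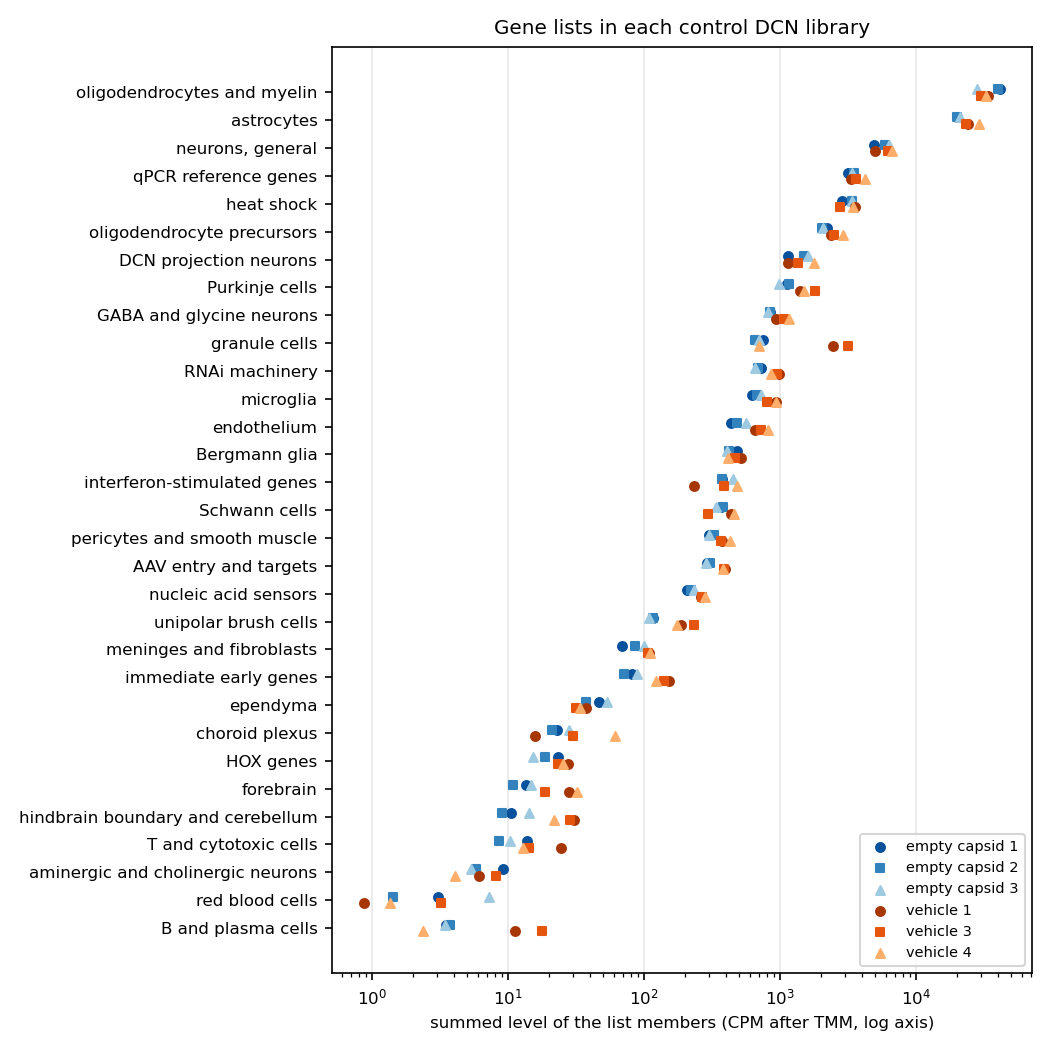
Summed level of each gene list in CPM after TMM (log axis), with 1 point for each of the 3 empty capsid libraries (blue, upper row of each list) and the 3 vehicle libraries (orange, lower row), without the sex-linked list. Myelin and astrocyte genes lie highest, near 36549 and 20358 CPM in the empty capsid mean, and the granule cell list splits vehicle libraries 1 and 3 from the other 4.

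Oligodendrocyte and myelin genes summed to 41573, 40235 and 27841 CPM in the empty capsid libraries and 33867, 30033 and 32902 CPM in vehicle, the highest of the 32 lists. All 15 matched members were detected. Beside MBP, TF, the iron carrier transferrin, was at 1905, 2097 and 1498 CPM and MOBP, a compact myelin protein, at 1754, 1658 and 1258 CPM. MOBP has 2 identifiers, of which the higher is given. CNP, an enzyme of uncompacted myelin, followed at 1594, 1350.05 and 994 CPM and ERMN, a cytoskeletal protein of mature oligodendrocytes, at 947, 880.1 and 735 CPM. MYRF, the transcription factor needed for myelination, was at 486, 499 and 379.6 CPM. Genes of oligodendrocyte precursors summed to 2212, 2051 and 2073 CPM with 9 of 9 detected. PTPRZ1, a receptor phosphatase, was highest at 778, 715 and 728 CPM, and PDGFRA, the growth factor receptor that defines precursors, was nearly constant at 90.3, 90.6 and 93.8 CPM. OLIG2 was at 80.6, 74.98 and 122 CPM and GPR17, a receptor of cells committed to differentiate, at 38.1, 43.6 and 64.1 CPM. Library 3 was highest in OLIG2 and GPR17, but over the 9 precursor genes it was highest in 4 and lowest in 4.

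Astrocyte genes were the steadiest of the large lists, with sums of 20141, 20045 and 20887 CPM and an SD of 2.26% of the mean. All 15 members were detected. SLC1A2, the main glutamate transporter, was at 1183, 1306 and 1514 CPM, NDRG2 at 1408, 1534 and 1592 CPM, CLU, a secreted chaperone, at 1375, 1418 and 1299.7 CPM, and SOX9, a glial transcription factor, at 149, 151 and 149 CPM. SOX9 varied least of these. GLUL, which turns glutamate into glutamine, was at 1767, 1653 and 1959.8 CPM. Vehicle sums were 24239, 23469.5 and 28992 CPM, above the empty capsid range by about the general ratio for libraries 1 and 3 and by more for library 4. Of the list for Bergmann glia, astrocytes of the cerebellar cortex, all 5 members were detected but GDF10, a secreted factor that defines them, was low at 1.12, 1.36 and 1.63 CPM against 7.40, 2.91 and 3.74 CPM in vehicle. SEPTIN4 (283 CPM), HOPX (79.4 CPM) and TNC (57.9 CPM) are also made by other glia.

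General neuronal genes summed to 4881, 5899 and 6371 CPM in the empty capsid libraries and 5011, 6173 and 6649.9 CPM in vehicle, with all 16 detected in both groups. The neurofilament subunits, which fill large axons, were among the highest: NEFL at 908, 1246 and 1314 CPM, NEFM at 577, 899.8 and 927 CPM and NEFH at 522, 756 and 902 CPM. SNAP25, a synaptic vesicle fusion protein, was at 741, 788 and 832 CPM and MAP2, a dendritic protein, at 649, 667 and 751 CPM. Empty capsid library 1 was lowest in all 3 neurofilament genes and library 3 highest. SYT1, the calcium sensor of transmitter release, went another way at 44.8, 18.1 and 47.4 CPM, with library 2 lowest. RBFOX3, which encodes the neuronal nuclear antigen NeuN and is strong in granule cells, was at 11.7, 11.8 and 11.4 CPM against 83.1, 99.7 and 22.1 CPM in vehicle.

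Genes of the DCN projection neurons were present, with 8 of 11 detected and sums of 1139, 1504 and 1607 CPM (1151, 1361 and 1781 CPM in vehicle). The detected share is near the 77.6% of identifiers with a protein-coding symbol. NEFH, which is also in the general neuronal list, was the largest part of the empty capsid sums at 522, 756 and 902 CPM. SLC17A6, the vesicular glutamate transporter of the projection neurons, was at 146, 173 and 170.1 CPM in empty capsid and 121, 108 and 192 CPM in vehicle. KCNC1, a potassium channel that allows fast firing, was at 94.1, 119 and 133 CPM and PVALB, a calcium buffer of fast-firing neurons, at 144, 178 and 145 CPM. The 3 members not detected in every library were transcription factors of developing nuclear neurons. TBR1 was at 0.549, 0.359 and 0 CPM, LMX1A at 0.150, 0.0718 and 0.0626 CPM and LHX9 at 1.32, 0.610 and 1.44 CPM. LMX1A had 6, 2 and 2 counts, and TBR1 had 22, 10 and 0 counts. The transmitter, channel and neurofilament genes of the list are shared with other brainstem neurons.

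Inhibitory neuron genes were all detected (11 of 11) and varied little, with sums of 848, 845 and 819 CPM, an SD of 1.92% of the mean. GAD1 and GAD2, the enzymes that make GABA, were at 105, 113 and 91.9 CPM and 110.3, 109 and 87.4 CPM. SLC6A5, the glycine transporter that marks glycine neurons, was at 55.2, 49.1 and 37.2 CPM, with 38.3, 44.5 and 55.1 CPM in vehicle, and SLC32A1, the vesicular carrier for both transmitters, at 35.3, 41.6 and 31.4 CPM.

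Of 17 matched Purkinje cell genes 16 were detected. PCP2 was at 25.2, 38.8 and 43.5 CPM (rank 5390), CALB1, a calcium buffer, at 26.4, 20.4 and 26.9 CPM (rank 6969) and CA8 at 25.04, 10.8 and 16.98 CPM. SKOR2, a Purkinje cell transcription factor, had at most 3 counts in each empty capsid library. DNER (466 CPM), PVALB (156 CPM) and ITPR1 (96.6 CPM) were higher, and other neurons or glia make them too. In vehicle ITPR1, the calcium release channel, was at 326, 395 and 119.7 CPM, far higher in libraries 1 and 3 than in library 4. PCP2 in vehicle, at 18.3, 39.2 and 102 CPM, was instead highest in library 4.

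Granule cell genes set the control libraries apart. The list summed to 747, 655 and 699.8 CPM in empty capsid and 2456, 3185 and 706 CPM in vehicle libraries 1, 3 and 4, so that vehicle libraries 1 and 3 lay over 3 times above the other 4. In 18 of the 19 members vehicle libraries 1 and 3 were both above vehicle library 4 and above all 3 empty capsid libraries. Over all 16697 genes with a mean of at least 1 CPM in either group the share with that order was 19.4%. GABRA6, the receptor subunit that defines mature granule cells, was at 1.87, 0.287 and 1.41 CPM in empty capsid and at 53.1, 92.1 and 1.70 CPM in vehicle. NEUROD1, a transcription factor of the granule lineage, was at 1.90, 1.36 and 2.57 CPM and 52.6, 64.5 and 3.06 CPM in the 2 groups, and SLC17A7, the glutamate transporter of granule cells, at 2.74, 1.15 and 4.82 CPM and 47.4, 105 and 9.87 CPM. In all 3 genes vehicle library 4 lay nearer the empty capsid libraries than vehicle libraries 1 and 3. FAT2, a giant cadherin of granule cells, stood far apart, at 10.9, 6.10 and 13.2 CPM in empty capsid and 476, 564 and 10.2 CPM in vehicle. CBLN3, a synaptic protein of the granule layer, was at 2.69, 1.47 and 2.35 CPM and 72.7, 112 and 5.44 CPM. BARHL2, with at most 6 counts in any empty capsid library, was at 13.5, 23.5 and 0 CPM in vehicle. The exception among the 19 was CALB2, a calcium buffer, at 13.4, 12.7 and 17.3 CPM and 7.83, 23.5 and 8.50 CPM. RELN, the secreted protein reelin, took over 50% of the list's sum in empty capsid at 456, 394 and 399.5 CPM, and without it the sums were 291, 261 and 300.3 CPM in empty capsid and 1667, 2162 and 324 CPM in vehicle. EOMES, a factor of unipolar brush cells of the granule layer, split in the same way, at 0.349, 0.0718 and 0.501 CPM in empty capsid and 11.3, 12.5 and 1.02 CPM in vehicle. How the tissue was dissected is not stated in the labels, and its part in these differences was not tested.

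**Figure D2:**
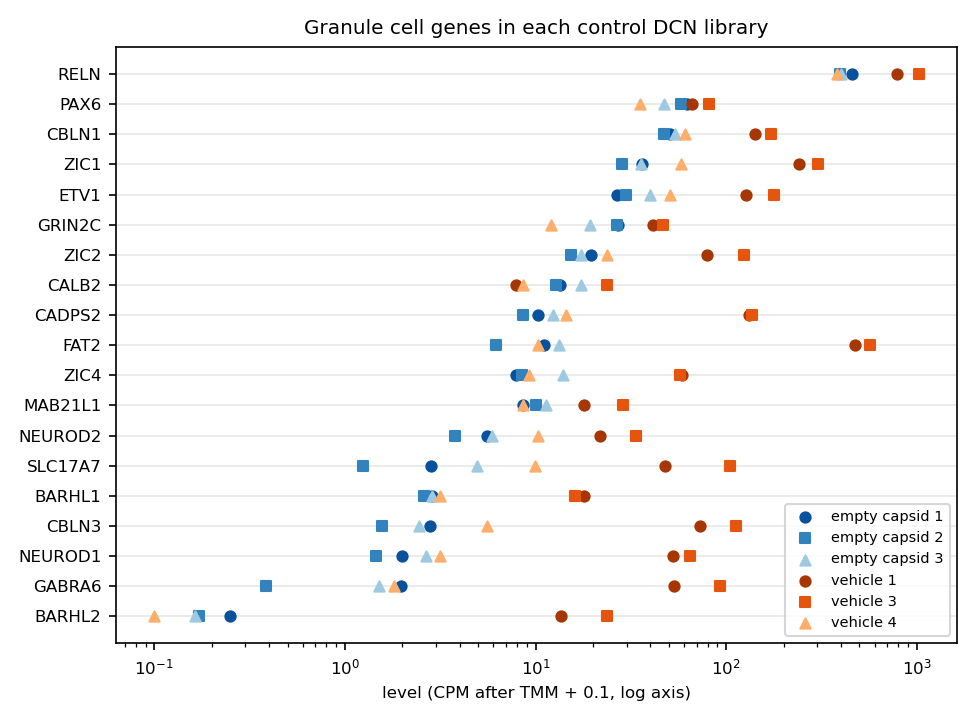
Level of the 19 granule cell genes in each of the 6 control libraries (CPM after TMM plus 0.1, log axis), with blue points for empty capsid and orange points for vehicle. Vehicle libraries 1 and 3 lie to the right of the other 4 libraries in every gene but CALB2, for example at 53.1 and 92.1 CPM for GABRA6 against 0.287 to 1.87 CPM.

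Endothelial genes were all detected (11 of 11) and summed to 433, 485 and 565 CPM, with 655, 722 and 821 CPM in vehicle. SLC2A1, the glucose transporter of the blood-brain barrier, was highest at 164, 177 and 185 CPM, followed by ABCG2, an efflux pump, at 74.3, 76.1 and 87.7 CPM, FLT1, a growth factor receptor, at 52.8, 58.6 and 75.9 CPM and VWF, the clotting protein stored in endothelium, at 43.5, 45.98 and 81.1 CPM. Library 3 was highest in each of these 4. Pericyte and smooth muscle genes had 9 of 10 members detected, and RGS5 led at 90.5, 110.2 and 104 CPM. NOTCH3, a receptor of mural cells, was at 46.6, 50.5 and 43.6 CPM, and CNN1, a protein of smooth muscle, was at 0.0998, 0.0718 and 0.188 CPM. MYH11, the smooth muscle myosin, was at 40.6, 37.01 and 36.4 CPM, but 87.7% of its vehicle reads lay on the opposite strand. Fibroblast and meningeal genes were low, with DCN, the matrix protein decorin, highest at 22.2, 35.4 and 36.99 CPM and COL3A1, a fibrillar collagen, at 6.68, 7.43 and 8.71 CPM. TTR, the thyroxine carrier that choroid plexus makes in quantity, was at 9.78, 8.90 and 14.7 CPM in empty capsid and 0, 4.94 and 40.1 CPM in vehicle, where library 4 was highest. OTX2, a choroid plexus transcription factor, was at 0.399, 0.610 and 2.19 CPM and FOLR1, its folate receptor, at 0.599, 1.08 and 0.626 CPM. Of the genes of ciliated ependyma, which lines the nearby ventricle, DNAH9, a dynein of motile cilia, was at 24.7, 20.4 and 31.3 CPM and FOXJ1, the factor that switches on motile cilia, at 5.24, 5.49 and 7.46 CPM, with library 3 highest in both. PRX, a Schwann cell protein, was at 6.11, 5.89 and 6.14 CPM, while PMP22 (212 CPM) and PMP2 (143 CPM) are also made in the brain.

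Microglial genes had 13 of 14 members detected, with sums of 627, 679 and 719 CPM in empty capsid and 932, 797 and 927 CPM in vehicle. CSF1R, the receptor microglia need to survive, was at 151, 175 and 181 CPM, CX3CR1, the fractalkine receptor, at 111, 130.4 and 150.2 CPM and P2RY12, a nucleotide receptor of resting microglia, at 68.8, 79.9 and 96.7 CPM. In these 3 genes library 1 was lowest and library 3 highest. SALL1, at 127, 132 and 129 CPM, is also made by other neural cells. TMEM119, a gene often used to define microglia, was near the limit at 0.125, 0 and 0.125 CPM, and in vehicle at 1.31, 0 and 0.340 CPM. Lymphocyte genes were close to absent. Of 12 genes of T and cytotoxic cells 3 reached 1 CPM in every library, namely CD8A (4.19 CPM), IL7R (3.34 CPM) and CD3E (1.40 CPM), while GZMA had no count and CD3D had 1 count in all. None of 7 genes of B and plasma cells reached 1 CPM in all 3 libraries, and CD79B had no count. Vehicle differed in IGHM, the heavy chain of immunoglobulin M, at 0.698, 0.503 and 0.752 CPM in empty capsid and 8.27, 11.9 and 0 CPM in vehicle. Of 7 red cell genes 5 were matched by symbol, and the haemoglobin genes HBA2 and HBB were not among them. The 5 matched genes were low, with AHSP highest at 2.67, 1.18 and 6.99 CPM. ALAS2, the enzyme of haem synthesis in red cells, was at 0.0998, 0 and 0.125 CPM, and HBA1, a haemoglobin chain, had at most 3 counts in each library.

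Interferon-stimulated genes, the antiviral response that an injected vector could raise, were present in both control groups, with 16 of 18 detected in empty capsid. Both groups were injected, so the level of these genes without injection is not known. They summed to 375, 376 and 448 CPM in empty capsid and 235, 387 and 480.3 CPM in vehicle, whose range takes in the whole empty capsid range. IFI6, a mitochondrial protein induced by interferon, was at 69.4, 78.8 and 118 CPM. IFIT1 was at 24.6, 24.3 and 34.5 CPM, MX1, an antiviral GTPase, at 26.6, 24.2 and 30.2 CPM and ISG15, a ubiquitin-like protein, at 2.42, 1.58 and 4.17 CPM. Empty capsid library 3 was highest in 11 of the 17 members with a mean of at least 1 CPM, against 32.9% of all genes. In IFI6 the 3 vehicle values of 60.5, 126 and 139 CPM spread more than the empty capsid values. Among sensors of foreign nucleic acid, MAVS, the adaptor of the RNA sensors, was at 98.8, 97.96 and 102 CPM and EIF2AK2, the kinase PKR, at 51.1, 58.6 and 59.8 CPM. TLR7, a receptor for single-stranded RNA, was at 16.1, 17.9 and 22.6 CPM, whereas TLR9, the receptor for unmethylated DNA through which AAV genomes are known to be sensed, was at 0.349, 0.359 and 0.313 CPM. CGAS and STING1, the cytosolic DNA sensor and its adaptor, were at 1.62, 2.12 and 2.005 CPM and 3.04, 2.05 and 2.94 CPM.

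Genes of AAV entry and the genes targeted by the tested vectors were all detected (6 of 6). KIAA0319L, the receptor most AAV serotypes use to enter cells, was at 87.1, 89.9 and 73.8 CPM, TM9SF2 at 86.3, 93.6 and 84.6 CPM and GPR108, another entry factor, at 21.9, 19.1 and 21.5 CPM. ATXN1, the gene targeted by the miS1 microRNA of the series, was at 43.6, 51.4 and 54.3 CPM in empty capsid and 99.2, 95.6 and 93.6 CPM in vehicle. ATXN7, the target named for miSCA7, was at 35.1, 31.3 and 32.6 CPM and 68.7, 81.95 and 63.3 CPM. In both genes all vehicle libraries lay above all empty capsid libraries, as in 29.4% of all genes, and the vehicle level was higher than the general ratio between the studies would give. All 10 genes of the RNA interference pathway were detected. DICER1, which cuts microRNA precursors, was at 272, 262 and 218 CPM, AGO1 at 107, 102 and 114 CPM, DROSHA, the nuclear processing enzyme, at 107, 101 and 93.1 CPM and AGO2, the Argonaute protein that slices targets, at 44.5, 38.05 and 42.7 CPM. XPO5, which exports the precursors, was nearly constant at 43.7, 44.4 and 42.9 CPM.

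Region genes were checked next. HOX genes, which pattern the hindbrain caudal to the cerebellum, were nearly silent: 2 of 25 reached 1 CPM in every library and 14 had at most 3 counts in each. HOXA2, the gene expressed furthest forward in the hindbrain, was at 0.299, 0.359 and 0 CPM and no count fell on HOXB1, HOXB4, HOXB5, HOXB6, HOXB7, HOXB8, HOXC6, HOXC8, HOXC9, HOXD9 or HOXD10. The other members at or under 3 counts in each library were HOXA5, HOXC5 and HOXC10. The exception was HOXD1, at 16.4, 15.2 and 12.4 CPM in empty capsid and 25.2, 18.6 and 22.5 CPM in vehicle, with 0.529% of vehicle reads on the opposite strand. The other member detected, HOXD3, was at 2.67, 1.79 and 1.47 CPM with 85.7% of vehicle reads opposite. Of forebrain genes 2 of 13 were detected. DLX1, DLX2, SIX3 and FEZF2, forebrain transcription factors, had at most 3 counts in each empty capsid library. EMX2 was at 4.07, 1.58 and 1.69 CPM, and NEUROD6, a factor of cortical projection neurons, was uneven at 0.549, 3.30 and 5.26 CPM. Of 6 genes of the midbrain-hindbrain boundary 3 were detected. EN2, which persists in the cerebellum, was at 1.57, 2.15 and 4.01 CPM in empty capsid and 19.1, 12.2 and 5.10 CPM in vehicle, and EN1 was at 0.175, 0.287 and 2.16 CPM, mostly in library 3. Aminergic and cholinergic neurons left almost no trace, with CHAT, the enzyme for acetylcholine, the single member of 13 detected, at 2.05, 2.76 and 1.25 CPM. TH, the first enzyme of dopamine synthesis, at 2.05, 0.431 and 0.313 CPM, and SLC6A3, the dopamine transporter, at 2.49, 0.0718 and 0.157 CPM, were both highest in library 1. FEV, a factor of serotonin neurons, had no count.

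Genes often used as references for quantitative PCR differed in steadiness. YWHAZ was at 578, 564 and 531 CPM (SD 4.30% of the mean), PGK1 at 130.5, 143 and 141 CPM (5.01%) and GAPDH at 1099, 1242 and 1285 CPM (8.03%), while B2M was at 207, 278 and 226 CPM (15.4%). Over all genes at 100 to 1000 CPM the median was 6.23%, which YWHAZ and PGK1 stayed under. PPIA looked steady at 2.17, 2.44 and 2.29 CPM, yet vehicle had 24.8, 27.6 and 32.3 CPM, over 10 times more. Among immediate early genes, which rise within minutes of stress or activity, FOS was at 3.77, 2.58 and 3.57 CPM, EGR1 at 4.66, 2.58 and 8.55 CPM and NPAS4 at 0.150, 0.0718 and 0 CPM, and JUN was highest at 31.4, 26.2 and 29.7 CPM. HSPA8, a constitutive chaperone, was at 1537, 1916 and 1851 CPM, HSP90AA1, a chaperone of signalling proteins, at 901, 1007 and 1073 CPM and HSPB1, a small chaperone raised by stress, at 37.7, 47.6 and 62.3 CPM.

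The spread between libraries set how small a difference this reference can carry. Over 16167 genes with an empty capsid mean of at least 1 CPM the median SD was 9.94% of the mean (quartiles 5.74% and 17.6%, 95th percentile 39.9%). In vehicle it was 18.1% over 15005 genes. The spread fell with level, from 27.1% at 1 to 2 CPM to 6.23% at 100 to 1000 CPM, where the SD expected from counting was 14.8% and 1.38%. It rose again to 9.08% for the 68 genes above 1000 CPM, for which counting gives 0.442%, so counting error was a small part of the spread of high genes. In vehicle, the spread was 57.0% at 1 to 2 CPM, beside 50.9% expected from counting. The counting values are expected SDs that take each count as a separate read. On that footing the median SD that counting gives over 3 libraries lies below them. If read mates were counted separately in empty capsid, its expected SDs would be up to 20.9% at 1 to 2 CPM and 1.95% at 100 to 1000 CPM. Whether the part due to counting in empty capsid is smaller or larger than shown is therefore not known. The common biological coefficient of variation by edgeR was 0.1668 in empty capsid and 0.197 in vehicle. The highest library was at least 2 times the lowest in 1086 genes (6.72%), of which 951 had a mean under 10 CPM. At 10 CPM or more it was 135 of 10456 genes (1.29%).

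**Figure D3:**
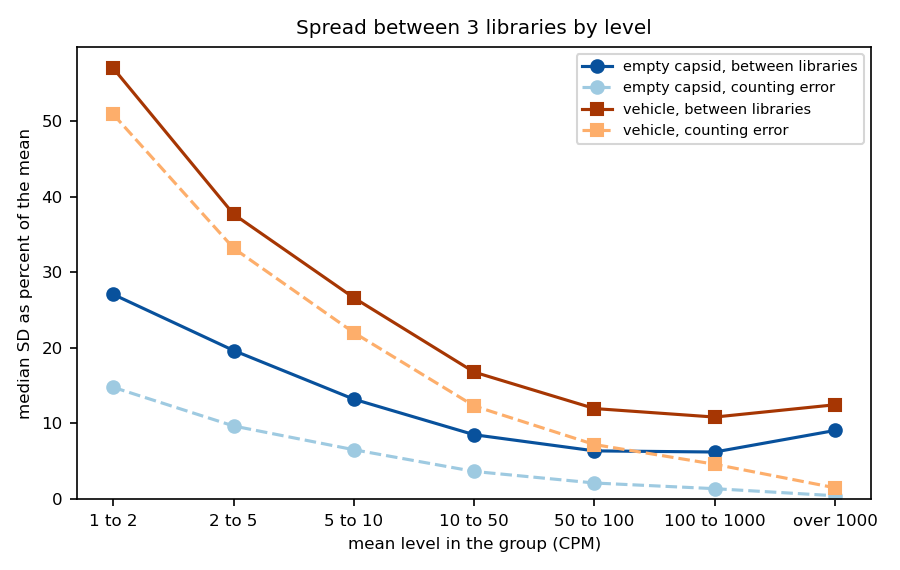
Median SD over 3 libraries as a percent of the mean, by mean level in CPM, for empty capsid (blue) and vehicle (orange). Solid lines are the spread between libraries and dashed lines the SD expected from counting alone. With each count taken as a separate read, the median SD that counting gives over 3 libraries lies below the dashed lines. If read mates were counted separately in empty capsid, its dashed line is too low by up to 1.41 times. At 100 to 1000 CPM the empty capsid spread is 6.23% against 1.38% expected from counting.

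The largest spreads among named genes at 10 CPM or more were mostly those of Y-linked genes (7 of 10), which report the sex of the animal. DDX3Y was at 91.5, 0 and 90.7 CPM in empty capsid and 79.6, 0 and 0 CPM in vehicle, and USP9Y at 142, 0.287 and 133 CPM and 158, 0.581 and 0 CPM. UTY, KDM5D, ZFY, RPS4Y1 and RPS4Y2 were likewise at or near 0 in empty capsid library 2 and vehicle libraries 3 and 4. NLGN4Y, which was singled out after its values were seen, was lower in the same libraries but not near 0, at 57.9, 10.8 and 48.5 CPM in empty capsid and 51.3, 8.43 and 4.08 CPM in vehicle. An identifier without a symbol, ENSMMUG00000049951, ran opposite, at 0.0499, 51.4 and 0.0940 CPM in empty capsid and 0.435, 97.1 and 81.0 CPM in vehicle. The remaining genes of largest spread were PTGFR, a prostaglandin receptor, at 8.38, 14.5 and 62.2 CPM, LAMA3, a laminin chain, at 45.8, 10.6 and 10.8 CPM and MLPH, an adaptor of vesicle transport, at 2.10, 31.05 and 43.3 CPM. Library 3 was high in PTGFR, library 1 was high in LAMA3 and library 1 was low in MLPH. CD4, which was singled out after its values were seen, was at 56.2, 4.27 and 39.7 CPM in empty capsid and 67.01, 45.6 and 42.2 CPM in vehicle, low in empty capsid library 2 alone. At the other end, the genes that varied least included NTMT1, FAM168A, FKBP9, PLCG1, RBL1, REV3L, HECW2, EIF4G1 and CSTF1. FAM168A was at 143.8, 143.7 and 143.6 CPM and EIF4G1, a scaffold of translation initiation, at 208.5, 207.7 and 207.9 CPM. With 3 libraries such small values are also the lower tail of 9802 genes ranked.

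Genes of some cell types differed together between the empty capsid libraries, but not those of every type. For example, library 3 was lowest in 5 and highest in 7 of 15 astrocyte genes, and lowest in 3 and highest in 5 of 13 microglial genes. Library 3 was lowest in 14 of 15 myelin genes, against 36.9% of all genes, and highest in none. The exception was OPALIN, a late myelin protein, at 69.6, 37.98 and 47.99 CPM. The list's SD was 20.7% of its mean, and CLDN11, a tight junction protein of myelin, was among the most uneven members at 475, 347 and 271 CPM. The vehicle sums, from 30033 to 33867 CPM, lay between library 3 and the other 2. Library 3 was also highest in 11 of 16 general neuronal genes and in 10 of 11 endothelial genes, against 32.9% of all genes. Library 1 was lowest in 11 of the 16 and 10 of the 11, against 31.8% of all genes. KDR, an endothelial growth factor receptor, ran 12.3, 19.3 and 22.4 CPM and CDH5, the endothelial cadherin, 5.96, 9.08 and 12.3 CPM. Members of a list share their library, so these counts describe 3 libraries and not independent genes.

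**Figure D4:**
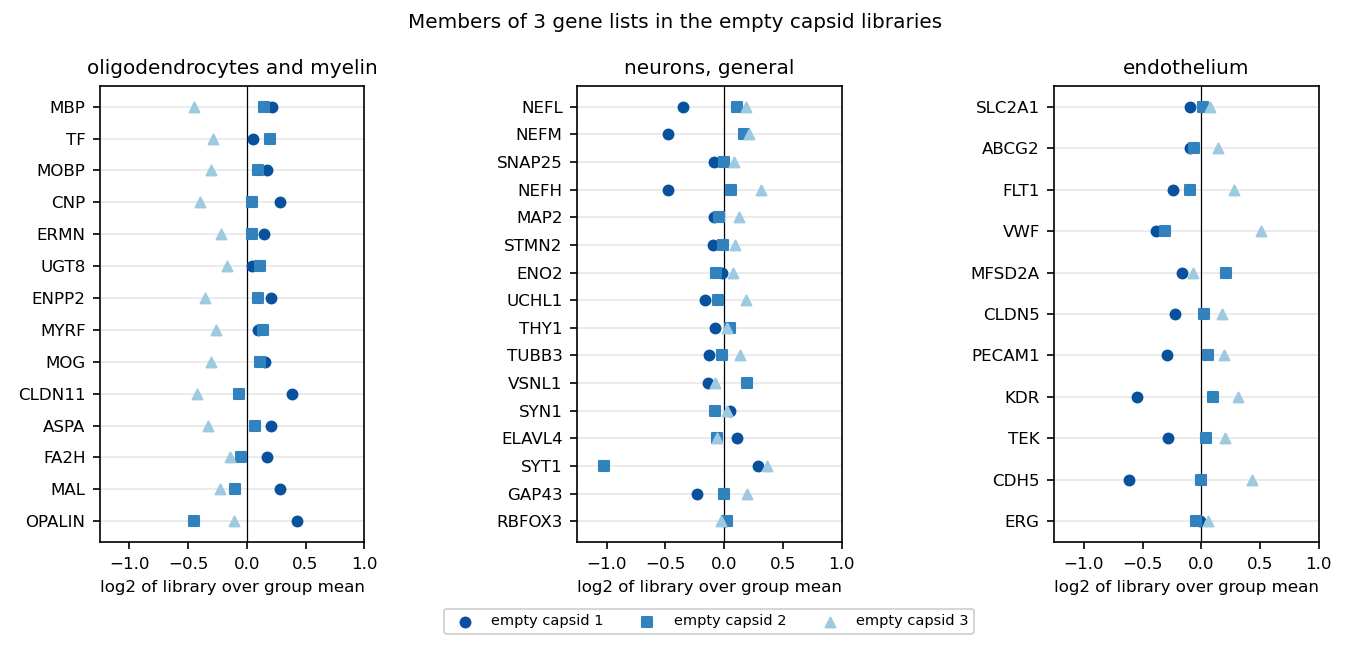
Members of 3 lists, each as the log2 of its level in an empty capsid library over the mean of the 3, ordered by mean level from the top. In the left panel library 3 (triangles) lies left of the other 2 in every gene drawn but OPALIN; in the right panel library 1 (circles) lies leftmost in 10 of 11 genes.

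The ranking held in large part between the studies. Across 16697 genes with a mean of at least 1 CPM in either group, Spearman's rho of the empty capsid and vehicle means was 0.908, against 0.987 to 0.988 for pairs of empty capsid libraries and 0.967 to 0.977 for pairs of vehicle libraries. These are descriptions across genes, which are not independent, and libraries of a group share their counting program. Of 14199 genes detected in empty capsid with at least 20 vehicle reads, 994 had over 50% of those reads on the opposite strand, and identifiers of that kind held 13.1%, 14.5% and 14.7% of empty capsid counts. Over the 14487 of the 16697 genes with at least 20 vehicle reads, rho was 0.922, and without the 1039 of these that had over 50% opposite reads it was 0.954, both comparisons added after the data were seen. With vehicle reads of both strands counted together, and the minimum of 1 CPM applied to those values, rho was 0.912. Over the detected genes the median share of opposite reads was 0.361%. The 2 groups shared 79 of their 100 highest, 421 of their 500 highest and 856 of their 1000 highest identifiers.

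**Figure D5:**
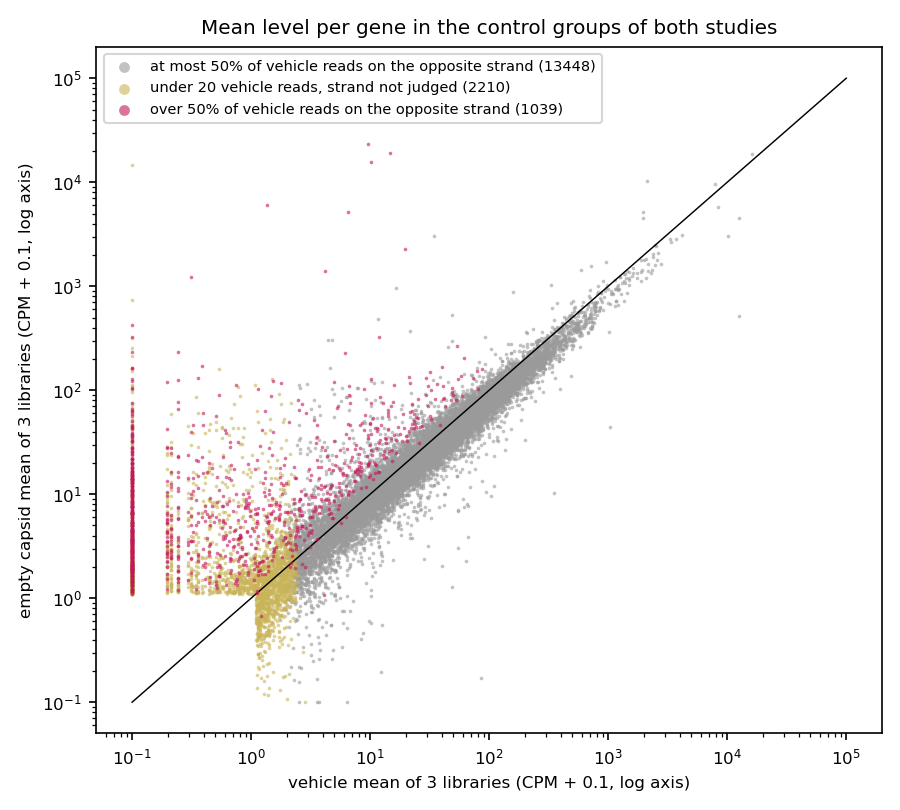
Mean level of each gene in vehicle (horizontal) and empty capsid (vertical), in CPM plus 0.1 on log axes, with the line of equal levels. Genes with over 50% of their vehicle reads on the opposite strand (1039, pink) lie mostly above the line, and genes read on their own strand (13448, grey) follow it with a rho of 0.954.

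Large gaps between the studies ran mostly in 1 direction. Of 11089 identifiers at 10 CPM or more in either group, 395 were at least 10 times higher in empty capsid, and 206 of these were read mostly on the opposite strand in vehicle while 154 had too few vehicle reads to judge. Only 15 were at least 10 times lower in empty capsid, 12 of them with a symbol. These 12 included granule cell genes (GABRA6, NEUROD1, SLC17A7, CBLN3, FAT2 and BARHL2) and genes of protein synthesis or folding (EEF1A1, RPS25 and PPIA), beside CHIT1, TRHDE and a Y RNA. The granule cell genes and TRHDE were high in vehicle libraries 1 and 3, whereas in vehicle library 4 FAT2 was at 10.2 CPM, GABRA6 at 1.70 CPM and TRHDE at 0.680 CPM. EEF1A1, the elongation factor of translation, was at 82.4, 24.8 and 24.9 CPM in empty capsid and 892, 921 and 1278 CPM in vehicle. Both ferritin chains differed, which were singled out after their values were seen: FTH1 was at 144, 135 and 132 CPM against 447, 446 and 574 CPM, and FTL at 499, 565 and 525 CPM against 43.5, 44.5 and 57.5 CPM, in opposite directions. Genes such as these have many near-identical copies in the genome, and how each counting program shared reads among the copies was not tested. In vehicle library 1 alone of the 3 vehicle libraries, identifier ENSMMUG00000028695 was near its empty capsid level. It was at 4560.4, 4815 and 4179 CPM in empty capsid and at 5833, 48.5 and 5.10 CPM in vehicle.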

How the data were processed

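Total RNA was measured in 6 control DCN libraries, made per the labels' protocols with a directional kit after removal of ribosomal RNA. The deposited files hold counts per gene. Per the submitters' processing notes the authors aligned reads with STAR 2.6.0c and used DESeq2 (version not given in the sources used here). Empty capsid counts came from featureCounts, which per the file headers counted a read overlapping several genes in each of them, with no strand setting stated. The vehicle counts are STAR's, of which the column for reverse-stranded libraries was used, and the opposite column served to judge strand. The genome build was not given in the sources used here. In empty capsid, identifiers with exactly 2 counts (1680 to 1886 per library) outnumbered those with 1 (723 to 759), so read mates may have been counted separately and counting error is then too small by up to 1.41 times.

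From the counts, CPM were computed after TMM (edgeR 4.0.16, R 4.3.3) within each group, with DESeq2 1.42.0 size factors and total counts as alternatives. Spread is the SD over the mean of 3 libraries. Spread and ranking code (Python 3.11.15, pandas 2.3.3, scipy 1.17.1, matplotlib 3.10.9) was tested on simulated data. Protein-coding genes were those so typed in RefSeq's table for the assembly T2T-MMU8v2.0, matched by symbol. Symbols matched 24009 of 34847 identifiers, and where a symbol had several the highest was used. Named genes are the 20 highest, the 10 largest and 10 smallest spreads at 10 CPM or more, the up to 4 highest of each list, members with at most 3 counts, and region genes called low, of which some are not reported here. Others were chosen after their values were seen, as were defining markers named for a low level. Members and lists were chosen with earlier results of these data known. Every value is a description, and no differential test was made. Libraries are separate animals by the labels' numbers. List genes without a matched symbol are not analysed here.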

Additional observations from a re-analysis of the deposited data

Results flagged for a closer look

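Reads on vector sequence were looked at in the empty capsid libraries, which by their label received no vector genome. The feature GpKFBextmU6miS1newStfr held 6, 8 and 6 counts in libraries 1, 2 and 3. The feature stuffer held 8 counts in library 2 and 6 in library 3, and intronic_miS1_pKFB held 10 counts in library 2. These were above the 3 counts that a count of 0 allows, in libraries of 28496977 to 39792653 counts. If read mates were counted separately, 6 counts would be 3 read pairs, which is not above that limit. The features overlap, so a read can be in more than 1 of them. All vector features together held 14, 28 and 16 counts, and their source was not tested.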

How the results depend on the processing

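The count of genes at 1 CPM or more in all 3 empty capsid libraries stayed within 1.5 times of 15396 under every setting run, and so did the median spread of 9.94% except with no filter on low counts, where it was 21.0%. Over protein-coding genes alone the 100 highest held 20.5% of counts in place of 30.5%, which follows from leaving out the unnamed and small RNA identifiers at the top. The number of genes whose highest library was at least 2 times the lowest was 1086, fell to 135 at 10 CPM, rose to 10701 with no filter, and was 505 to 598 with 1 library left out, as it must with fewer libraries. Spearman's rho between the studies was 0.908. It was 0.900 with the shallow vehicle library added, 0.902 with no filter, 0.927 at 10 CPM in both groups, 0.912 with vehicle reads of both strands, 0.922 over genes with at least 20 vehicle reads, 0.954 over genes read on their own strand, and 0.903 to 0.909 with 1 library left out. The summed levels of the 32 lists stayed within 1 SD in 64 of 64 values under other scalings. With 1 library left out 2 of 96 values moved over 1.5 times: the red blood cell sum of empty capsid was 2.23 CPM without library 3 in place of 3.91, and the sex-linked sum 386 CPM without library 2 in place of 255. Without vehicle libraries 1 and 3 the granule cell sum of vehicle was 706 CPM in place of 2116. No paired analysis was possible because no test between groups was made. Vehicle depth limits genes under about 1 CPM.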

Other observations

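Beyond the granule cell list, 86 identifiers with a vehicle mean of at least 10 CPM were at least 2 times higher in both vehicle libraries 1 and 3 than in vehicle library 4 and every empty capsid library. With 14 members of the list they made 100 of the 10267 identifiers at that vehicle mean. The genes named here were chosen after their values were seen. PTK2B, a calcium-activated kinase, was at 8.11, 6.96 and 7.27 CPM in empty capsid and 77.02, 101 and 5.44 CPM in vehicle. GRM4, a presynaptic glutamate receptor of parallel fibres, was at 21.00, 24.8 and 23.7 CPM and 151, 154 and 25.5 CPM. PRRT2, a presynaptic protein linked to paroxysmal movement disorders, was at 7.03, 6.17 and 7.42 CPM and 60.05, 99.4 and 5.10 CPM, and CAMK4, a nuclear kinase rich in granule cells, at 5.91, 6.35 and 5.11 CPM and 37.4, 52.3 and 7.82 CPM. The rule that picked these 4 genes sets vehicle library 4 and the empty capsid libraries below vehicle libraries 1 and 3, so that order is no separate result.

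Some differences in a single empty capsid library touched genes outside the lists. XIRP2 was at 27.3, 24.7 and 89.1 CPM and ETV5, a transcription factor, at 73.96, 80.7 and 192 CPM, both highest in library 3. CPXM2 was at 14.2, 51.1 and 15.7 CPM, highest in library 2. LYPD1 was at 7.11, 38.5 and 58.6 CPM, lowest in library 1, and its vehicle values of 1.74, 4.07 and 4.42 CPM were all lower. COL5A1, a collagen chain, was at 26.4, 31.3 and 6.52 CPM and MAP1LC3B, a protein of autophagosomes, at 38.9, 53.1 and 13.97 CPM, both lowest in library 3.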
